A study of Mus musculus with 4 samples.

Results

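The Myt zinc finger family has 3 members in the mouse, St18 (the gene that the study calls Myt3), Myt1 and Myt1l (Myt2), and their 3 rows were taken by symbol from the 32227 genes of each deposited matrix. These genes encode transcription factors with clustered zinc fingers of the CCHHC type. They are best known from neurons and neuroendocrine cells, and in the pancreas they are expressed in endocrine progenitors and in islet cells. Islets hold β cells, which make insulin, α cells, which make glucagon, δ cells, which make somatostatin, and PP cells, which make pancreatic polypeptide, beside endothelial cells, mesenchymal cells and leukocytes.

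The study sequenced the RNA of single dissociated islet cells from adult mice. Of the 4 labelled libraries, 2 came from mice homozygous for an insertion in an exon of Myt3 that disrupts an upstream open reading frame (mutant) and 2 came from mice homozygous for the wild-type allele (control). Each library pooled islets of several mice of both sexes, so a library is a pool and not an animal. Normal diet and PIPseq stand in the labels, whereas the study's methods name a high-fat diet and inDrop, and the difference could not be settled here. Expression was analysed in mutant 1, mutant 2 and control 2, so that genotypes were not tested. The batch label of control 2 also differs from that of the mutants, and if it names a batch, batch and genotype cannot be told apart. The insertion cannot be read from these counts, so the genotype labels were taken as given.

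Cells were kept at 500 unique molecular identifiers (UMIs) and 100 genes or above and at a mitochondrial share of up to 10%, which left 2940, 2040 and 2283 cells in mutant 1, mutant 2 and control 2. Their median depth was 2427, 3852 and 14051 UMIs. No barcode was shared between libraries. Kept cells held 717, 925 and 3133 UMIs of St18, 287, 337 and 757 UMIs of Myt1, and 1098, 1014 and 2205 UMIs of Myt1l in that order. Levels are therefore given as summed UMIs of a cell class per 1000000 UMIs of genes other than 7 hormone and 13 mitochondrial genes (CPM), with exact Poisson intervals at 95%, and these intervals cover counting error only.

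The family is defined by its fingers, so the sequence of a corresponding finger of each member is shown first. Coordinates and sequences are from GENCODE vM21 on GRCm38, which is not the build that the submitters name. St18 lies at chr1:6487231-6860940, Myt1 at chr2:181763332-181827797 and Myt1l at chr12:29528384-29923213, all on the plus strand. No annotated gene overlaps St18 or Myt1, but 2 genes on the minus strand, C630031E19Rik and Gm20208, overlap Myt1l. Whether counting used strand is not given in the sources used here, and reads of these 2 genes could then be counted for Myt1l. In the longest complete coding sequence of each gene, windows with the CCHHC spacing occurred 6 times in St18, 7 times in Myt1 and 6 times in Myt1l. The finger shown for each gene lies within a single exon, exon 9 of St18 (chr1:6807575-6807649), exon 8 of Myt1 (chr2:181801049-181801123) and exon 11 of Myt1l (chr12:29832320-29832394). Capitals mark the codons of the cysteines and histidines of the CCHHC spacing.
St18: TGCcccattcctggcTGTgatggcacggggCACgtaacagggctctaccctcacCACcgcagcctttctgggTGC
Myt1: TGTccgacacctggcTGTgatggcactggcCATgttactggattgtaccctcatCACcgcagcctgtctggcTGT
Myt1l: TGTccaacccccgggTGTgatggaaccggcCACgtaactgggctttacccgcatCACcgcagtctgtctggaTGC
Over these 75 bases, St18 shared 59 bases with Myt1 and 59 with Myt1l, and Myt1 shared 60 with Myt1l. Reads from such finger codons are similar but not identical among the members, and how the counting assigned them is not given in the sources used here.

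Cells were classed by the share of their UMIs that came from hormone transcripts. A cell passed for insulin at 50% of its library's median insulin share or more, which was 17.9%, 18.8% and 26.6% of UMIs in mutant 1, mutant 2 and control 2, and passed for Gcg, Sst or Ppy at 5%. This gave 2241, 1529 and 1940 β cells, 309, 232 and 38 α cells, 26, 36 and 32 δ cells, and 59, 39 and 21 PP cells. A further 286, 196 and 237 cells passed for no hormone and are called hormone-low. The label of non-endocrine cells did not hold for this class as a whole. In mutants 1 and 2, 82 and 52 of its cells had an Sst share between 1% and 5%, against 4 in control 2. Only 72, 67 and 87 of the hormone-low cells carried at least 2 different endothelial, mesenchymal or leukocyte markers, and those are called non-endocrine here. In mutant 2, 6 of those 67 cells, 3 endothelial cells and 3 leukocytes, still had an Sst share between 1% and 5%. In mutant 1 and control 2 the number was 0. Hormone-low cells without such markers had a median insulin share of 7.4%, 9.1% and 17.0%. The share needed to pass for insulin was highest in control 2, so that the class is not the same mix in control 2 as in the mutants.

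All members were detected in each of the 4 endocrine classes of every library, and all were lower in non-endocrine cells than in β cells. St18 stood at 168 (154 to 182) CPM in β cells of mutant 1, 211 (196 to 226) in mutant 2 and 216 (208 to 224) in control 2. In non-endocrine cells it was counted 0, 13 and 25 times, which is 0, 88.3 and 51.3 CPM. Non-endocrine cells were thus below β cells in every library, without overlap. Myt1 stood at 68.7, 75.03 and 51.6 CPM in β cells and at 0, 27.2 and 12.3 in non-endocrine cells. Myt1l stood at 249, 208 and 151 CPM in β cells and at 29.1, 54.3 and 26.7 in non-endocrine cells. By type, leukocytes (19, 21 and 17 cells) held 0, 195 (84.2 to 384) and 126 (54.4 to 248) CPM of St18, from 0, 8 and 8 UMIs. In mutant 2 and control 2 these intervals met those of β cells. The UMIs lay in only 4 leukocytes of each of these libraries, with up to 3 and 5 in a single cell. Poisson intervals do not allow for such clumping, and doublets were not called, so a leukocyte level like that of β cells is not shown. Endothelial cells (40, 36 and 47 cells) held 0, 42.8 and 41.0 CPM of St18, from 0, 4 and 14 UMIs. Mesenchymal cells (13, 10 and 23 cells) held 0, 78.0 (1.98 to 435) and 36.7 (7.56 to 107) CPM, from 0, 1 and 3 UMIs. In mutant 1 the 0 counts of St18 by type allow up to 53.8 CPM in endothelial cells, 265 in mesenchymal cells and 180 in leukocytes. Myt1 stood at 0, 97.5 and 15.7 CPM in leukocytes, from 0, 4 and 1 UMIs. In mutant 2 it was above β cells, with an interval of 26.6 to 250 that met theirs, from 3 cells. Myt1l stood at 0, 73.2 and 47.2 CPM there. Over all non-endocrine cells of mutant 1 together, the 0 counts of St18 and Myt1 allow up to 29.1 CPM at 3 counts, or up to 35.8 CPM by the exact Poisson interval. The β cell levels of St18 and Myt1 were 5.76-fold and 2.36-fold above the limit at 3 counts, without their own error.

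**Figure D1:**
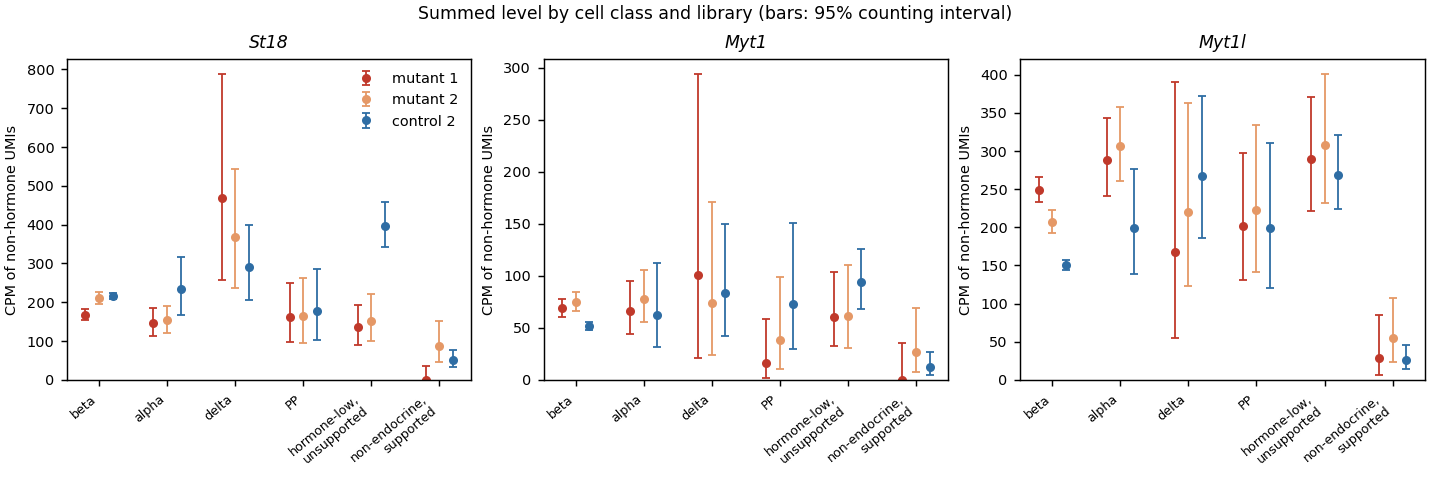
Summed level of St18, Myt1 and Myt1l (y axis, CPM of non-hormone UMIs) in each cell class (x axis) of mutant 1, mutant 2 and control 2, with 95% counting intervals. Hormone-low cells are split by support from endothelial, mesenchymal or leukocyte markers. The marker-supported cells at the right lie below β cells for each gene in all 3 libraries.

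The sums of each class and library were compared with edgeR's quasi-likelihood test, with class and library as terms, the 3 libraries as replicates of each class, and Benjamini-Hochberg adjustment over all genes. Standard errors (SE) are the fold divided by the square root of the F statistic. In non-endocrine cells, St18 fell by 1.87 on the log2 scale against β cells (SE 0.32, adjusted p = 1.8e-05), Myt1 fell by 2.06 (SE 0.46, adjusted p = 0.00039) and Myt1l fell by 2.35 (SE 0.30, adjusted p = 1.5e-07). All 3 members passed, where 28.7% of the 5018 genes tested passed in that direction. Against α cells (where 20.8% of genes passed in that direction) and δ cells (15.6%) the 3 members passed as well, and against PP cells (16.8%) St18 and Myt1l passed while Myt1 did not (log2 fold -1.36, SE 0.66, adjusted p = 0.11).

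Droplets also capture free RNA from broken cells, so what was left in non-endocrine cells was set beside genes that such cells should lack. The 6 pan-endocrine secretory genes (Chga, Chgb, Scg2, Scg5, Pcsk2 and Cpe) had 11.5% to 21.6% of their β cell level in the non-endocrine cells of mutant 1, 12.1% to 39.0% in mutant 2 and 7.92% to 17.1% in control 2. St18 had 0%, 41.9% and 23.8%, Myt1 had 0%, 36.2% and 23.9%, and Myt1l had 11.7%, 26.2% and 17.7%. The members thus lay above the upper end of this range for St18 in mutant 2 and for all members in control 2, and St18 and Myt1 lay below its lower end in mutant 1. These shares rest on 3 to 25 UMIs wherever they are above 0, and the part of free RNA in them was not tested.

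Among the endocrine classes the order of the levels was not the same for each member, and no difference between endocrine classes passed the test. In δ cells St18 stood at 469 (257 to 787) CPM in mutant 1, 367 (238 to 542) in mutant 2 and 290 (205 to 398) in control 2, from 14, 25 and 38 UMIs. The δ cells were above the β cells of their own library in all 3 libraries, and the 2 groups of values did not overlap. The fitted difference was 0.59 on the log2 scale (SE 0.25, adjusted p = 0.12) and did not pass, where 13.1% of the 8153 genes tested passed in either direction. With Sst at 1% in place of 5%, the difference was 0.33 (SE 0.22, adjusted p = 0.31). It passed at 0.79 without control 2 (adjusted p = 0.037). With the minor hormones at 10%, 3, 4 and 18 δ cells were left, and a sum needed at least 10 cells. Only control 2 then gave a δ sum, and the log2 fold of -0.13 rests on it alone. In α cells St18 stood at 145, 153 and 233 CPM and in PP cells at 161, 164 and 178 CPM. The counting intervals met those of β cells in both classes except in α cells of mutant 2, which lay lower (121 to 191). In cells of 3000 to 6000 UMIs, α cells of control 2 stood at 28.5 (0.72 to 159) CPM, from 1 UMI in 12 cells, against 217 in β cells, so that their level of 233 rests on cells of other depths. Against β cells the log2 fold was -0.13 in α cells (SE 0.21, adjusted p = 0.69) and -0.23 in PP cells (SE 0.25, adjusted p = 0.61).

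Myt1l, by contrast, was highest in α cells among the endocrine classes of the mutant libraries. It stood at 289 (241 to 343) CPM in α cells of mutant 1, 306 (260 to 358) in mutant 2 and 199 (139 to 277) in control 2. Each value was above the β cells of the same library, but the groups overlapped across libraries because β cells of mutant 1 stood at 249. The fitted difference was 0.48 on the log2 scale (SE 0.20, adjusted p = 0.069), where 26.9% of genes passed in either direction. This call depended on the setting, with an adjusted p of 0.040 by DESeq2 and of 0.0030 without control 2. In δ cells Myt1l stood at 168, 220 and 267 CPM, and in PP cells at 202, 222 and 199 CPM. Neither class differed from β cells beyond its error, with log2 folds of 0.13 (SE 0.25) and 0.046 (SE 0.24).

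Myt1 was the lowest member in every endocrine class of every library. It stood at 65.9, 77.5 and 62.6 CPM in α cells and at 101, 73.5 and 84.0 in δ cells, from 29, 40 and 11 UMIs and from 3, 5 and 11 UMIs. In PP cells it stood at 16.1, 38.7 and 73.4 CPM from only 2, 4 and 7 UMIs, below the β cells in both mutant libraries and above them in control 2. None of these differences from β cells passed (15.4% of genes did in PP cells), with log2 folds of 0.18 in α cells (SE 0.24), 0.21 in δ cells (SE 0.37) and -0.67 in PP cells (SE 0.40, adjusted p = 0.28). The last was -0.16 without mutant 1 and passed at -1.41 without control 2 (adjusted p = 0.045). These levels compare classes within a gene. Levels of different members are not on a per-length scale, and the order of the members is an order of counts only.

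**Figure D2:**
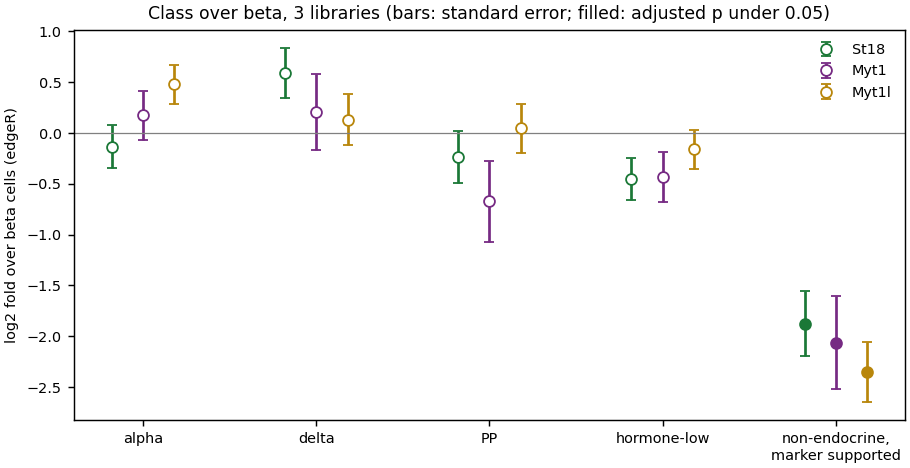
Fitted log2 fold over β cells (y axis, edgeR) for each member in α, δ, PP, hormone-low and non-endocrine cells (x axis), over 3 libraries, with bars for the standard error and filled points for an adjusted p under 0.05. Only the points of the marker-supported non-endocrine cells, at -1.87, -2.06 and -2.35, are filled.

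Over all 10 pairs of classes with hormone-low cells left whole, 2 of 30 member comparisons passed and 8 had an unadjusted p under 0.05. In hormone-low against β cells none of the members passed, where 30.8% of genes did. St18 stood at -0.45 there (SE 0.20, adjusted p = 0.097), and this call depended on the setting, since it passed at -0.79 without control 2, -0.86 with insulin at 25%, -0.54 with the minor hormones at 2%, -0.63 with Sst at 1% and -0.60 without a filter. The 2 that passed were Myt1l in hormone-low against α cells (log2 fold -0.64, SE 0.21, adjusted p = 0.030), where 20.3% of genes passed, and St18 in hormone-low against δ cells (log2 fold -1.04, SE 0.26, adjusted p = 0.0077), where 12.8% passed. Both were lost when either mutant library was left out, with adjusted p of 0.11 and 0.31 for Myt1l and of 0.11 and 0.14 for St18.

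Hormone-low cells without support from endothelial, mesenchymal or leukocyte markers held all members. The 214, 129 and 150 such cells of mutant 1, mutant 2 and control 2 held 135, 151 and 398 CPM of St18, 60.6, 61.6 and 94.0 of Myt1, and 289, 308 and 269 of Myt1l. In control 2 each member stood above the β cells of that library, whereas in the mutants only Myt1l did. The cells of control 2 had a median insulin share of 17.0%, a median mitochondrial share of 5.4% against 1.0% in β cells, and 10440 CPM of Malat1, a nuclear RNA, against 3772 in β cells. In the mutant libraries Malat1 stood at 928 and 2133 CPM in these cells and at 846 and 1183 in β cells. Acinar and duct markers were not used to set cells apart. Acinar markers summed to 331, 106 and 769 CPM in these cells of mutant 1, mutant 2 and control 2, against 98.3, 55.4 and 155 in β cells. Duct markers summed to 1515, 1148 and 2231 CPM, against 830, 748 and 1074. The parts of RNA quality and of such other cells in these levels were not tested.

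For detection at matched depth, cells were thinned to 500 non-hormone UMIs by a seeded draw, and shallower cells were left out. This removed 258 and 67 β cells and 17 and 3 α cells of mutants 1 and 2, and none of control 2. Because a single draw is noisy, the mean over all possible draws is given beside it. St18 was detected in 8.67% of β cells in mutant 1 (7.47% to 9.9997%, Clopper-Pearson interval), 9.78% in mutant 2 (8.31% to 11.4%) and 10.6% in control 2 (9.28% to 12.1%), with means over draws of 8.12%, 9.69% and 10.2%. In δ cells it was detected in 5 of 26, 8 of 36 and 7 of 32 cells, with means of 21.7%, 20.4% and 13.6%, above the β cells of each library. Before thinning, and with the shallower cells included, St18 was detected in 472 of 2241, 509 of 1529 and 1253 of 1940 β cells.

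Myt1l was detected in 11.04%, 10.3% and 7.16% of thinned β cells and Myt1 in 3.63%, 3.83% and 2.68%. In α cells the draw gave Myt1l in 15.1%, 9.61% and 18.4% of cells, whereas the means over draws were 14.2%, 14.9% and 10.5%. The draw in mutant 2 fell well below its mean and that in control 2 above it, so that the order of α and β cells for Myt1l in mutant 2 rests on the mean and not on this draw. In non-endocrine cells St18 was detected in 0 of 70, 5 of 67 and 0 of 87 cells, with means of 0%, 3.89% and 4.07%, Myt1 in 0, 1 and 1 cells, and Myt1l in 2, 1 and 2 cells. For mutant 1, the count of 0 of 70 allows a share of up to 4.29% at 3 counts, or up to 5.13% by the Clopper-Pearson interval, of cells with a UMI at this depth.

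**Figure D3:**
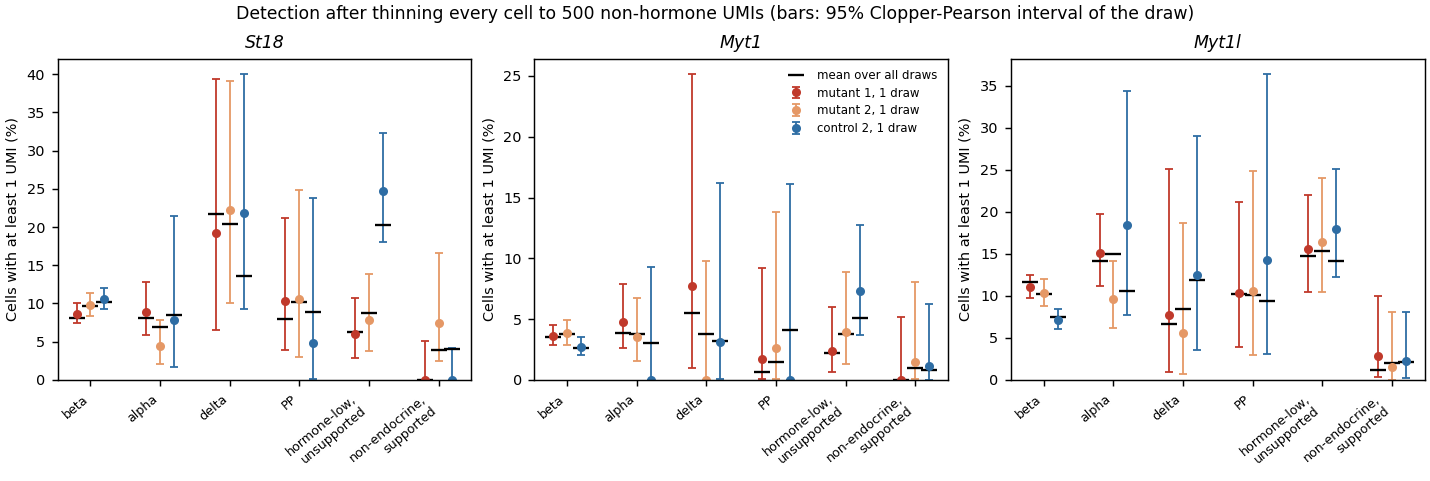
Share of cells with at least 1 UMI of each member (y axis, percent) by cell class (x axis) after thinning cells of sufficient depth to 500 non-hormone UMIs, with points for 1 draw, bars for its 95% Clopper-Pearson interval and black dashes for the mean over all draws. The dashes of α cells for Myt1l lie at 14.2%, 14.9% and 10.5%, and the draw of mutant 2 lies below its dash.

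Within β cells the levels of Myt1l and St18 moved with measures of the cells themselves. The β cells of each library were ranked by insulin share and divided into 4 groups of equal size. Myt1l fell from 355 (310 to 405) CPM in the insulin-poorest group to 192 (166 to 222) in the insulin-richest group of mutant 1, from 266 (226 to 310) to 142 (121 to 166) in mutant 2, and from 170 (155 to 187) to 131 (119 to 143) in control 2. These counting intervals did not overlap in any library. Ranked by UMIs per cell, all 3 members were lower in the deepest than in the shallowest group of each library. Myt1l went from 361 to 230, from 269.9 to 189 and from 175 to 137 CPM. St18 went from 176 to 154, from 241 to 210 and from 238 to 203, and Myt1 from 86.3 to 65.9, from 85.7 to 69.6 and from 65.9 to 46.6. The part of depth in the levels of the members was not tested. By insulin share, St18 went from 136 to 179 CPM in mutant 1 and from 183 to 209 in mutant 2 but from 231 to 191 in control 2, and Myt1 went from 80.5 to 64.1, from 98.0 to 62.3 and from 58.0 to 51.8. Cells are not replicates, so no test was made of these values.

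Ranked by Malat1 per UMI instead, St18 stood at 135 (109 to 165) CPM in the lowest group and at 211 (179 to 246) in the highest group of mutant 1. It went from 175 (143 to 213) to 245 (212 to 280) in mutant 2 and from 172 (156 to 189) to 271 (252 to 291) in control 2. Myt1l went from 244 to 260, from 186 to 216 and from 122 to 189 CPM, and Myt1 from 73.9 to 74.7, from 97.8 to 69.7 and from 56.7 to 60.0. St18 was thus higher with high Malat1 in all 3 libraries, although its counting intervals met in mutant 2, and the intervals of Myt1l were apart in control 2 alone. In the mutant libraries the lowest groups were drawn among ties, since 994 of 2241 and 384 of 1529 β cells had no Malat1 UMI. All β cells without a Malat1 UMI together held 138 (118 to 159.7) CPM of St18 in mutant 1 and 176 (144 to 214) in mutant 2. Ranked by mitochondrial share, St18 also went up, from 140 to 214, from 145 to 241 and from 197 to 245 CPM, and its part was not tested. δ cells also had more Malat1 than β cells in each library, 1005 against 846, 1970 against 1183 and 5321 against 3772 CPM. So had PP cells, at 1266, 1915 and 7164 CPM, and α cells, at 848, 1429 and 4548. St18 in PP cells was below β cells in each library. In α cells it was below them in both mutants and above them in control 2. Whether nuclear RNA has a part in the δ cell level of St18 was not tested.

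**Figure D4:**
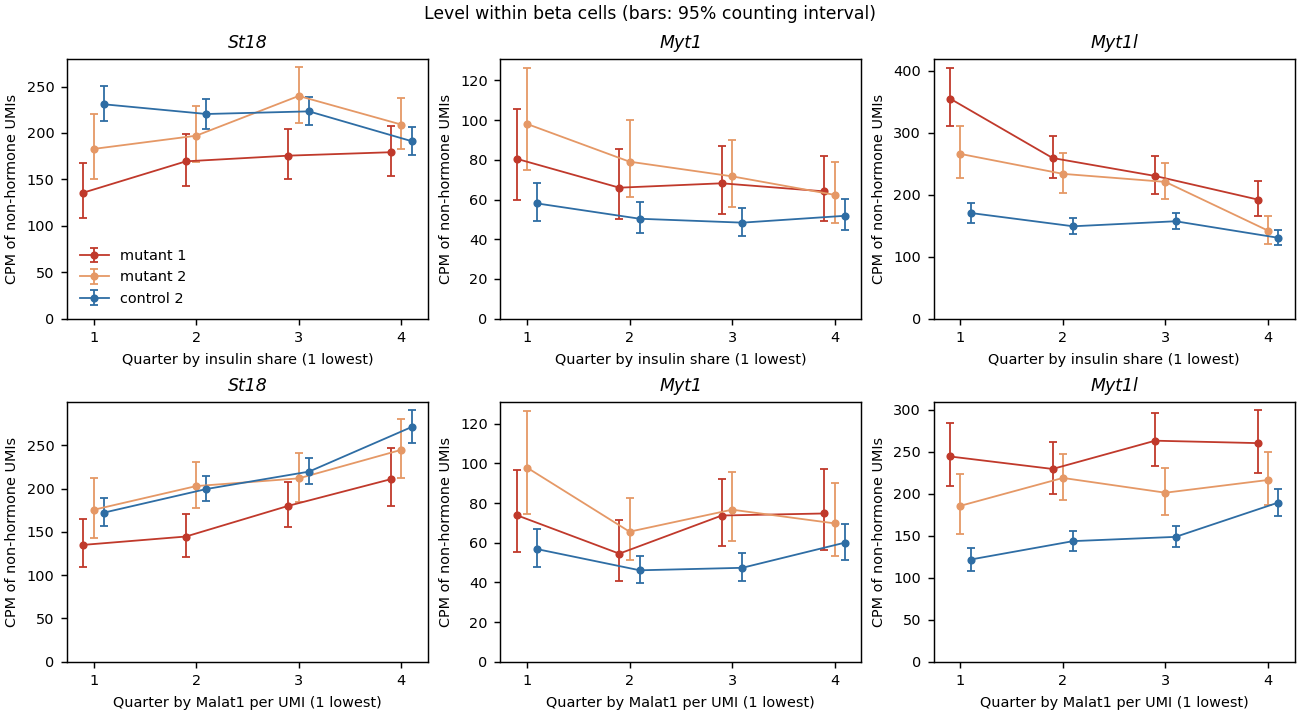
Level of each member (y axis, CPM of non-hormone UMIs) in 4 equal groups of β cells ranked by insulin share (upper row) or by Malat1 per UMI (lower row), for each library, with 95% counting intervals. In the mutant libraries the lowest Malat1 groups hold cells tied at 0. Myt1l falls with insulin share in all libraries, for example from 355 to 192 in mutant 1, and St18 rises with Malat1, for example from 172 to 271 in control 2.

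Paralogs were found in the same β cells at 0.86 to 1.15 of the number expected from depth. Observed cells with both genes were divided by the number expected from each gene's share within 10 strata of depth. St18 and Myt1 were seen together in 64, 77 and 398 β cells against 55.6, 89.1 and 393 expected, which gives ratios of 1.15 (0.89 to 1.47), 0.86 (0.68 to 1.08) and 1.01 (0.92 to 1.12). For St18 and Myt1l the ratios were 1.12, 1.03 and 1.01, and for Myt1 and Myt1l they were 0.99, 1.10 and 1.02. All 9 counting intervals included 1. They treat the observed count as Poisson, which is wider than the spread with the number of cells of each gene held fixed. Inclusion of 1 therefore does not show that the genes were independent, and no test was made. Pairs of a member with another islet transcription factor had median ratios between 0.99 and 1.02. At full depth, 53.1%, 39.5% and 17.7% of β cells had none of the members and 1.38%, 2.81% and 13.7% had all 3. In the deepest 10% of the β cells of control 2, 98.5% had at least 1 member and 37.1% had all 3.

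**Figure D5:**
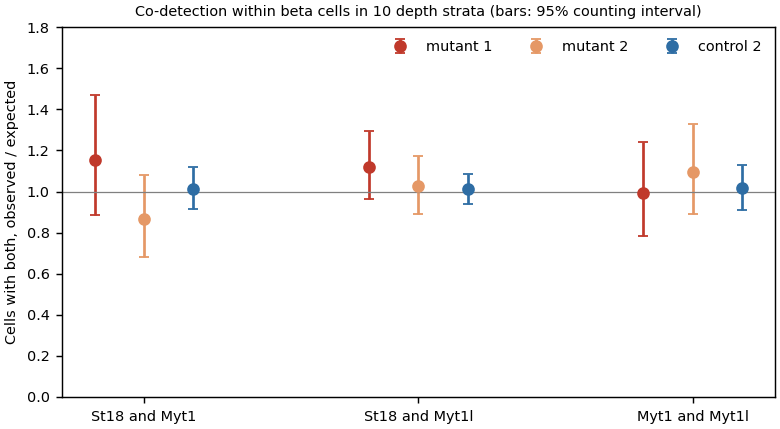
Observed over expected number of β cells with both paralogs (y axis, ratio) for each pair (x axis) and library, within 10 depth strata, with 95% counting intervals. The ratios lie between 0.86 and 1.15 and each interval includes 1. The intervals treat the observed count as Poisson and are wide for such counts.

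Between genotypes only ratios of each mutant library to control 2 can be given, with no test. After TMM scaling of the β cell sums, St18 stood at 162 and 197 CPM in mutants 1 and 2 and at 239 in control 2, log2 ratios of -0.56 and -0.28. The median gene stood at -0.23 in both mutant libraries, above St18 in each. Its sign was not stable, with log2 ratios of 0.024 and 0.31 in CPM of all UMIs, where the median gene stood at 0.44 and 0.42, again above St18 in each. Myt1 stood at 66.4 and 70.1 against 57.1 CPM, log2 ratios of 0.22 and 0.30, and Myt1l at 241 and 194 against 167, log2 ratios of 0.53 and 0.22. Myt1 and Myt1l were higher in both mutant libraries under all settings tried. The study, which used both of its control samples, detected no change in Myt3 and instead reported lower Myt1 in mutant β cells. It tested single cells at an absolute log2 fold above 0.5, whereas the values here are ratios of sums without a test. It also reported Mafa, Pdx1, Nkx2-2 and Nkx6-1 as lower and Atf4 as higher there. Here Mafa had log2 ratios of 2.15 and 2.01 and Pdx1 of 0.90 and 0.84. Nkx2-2 had 0.89 and 0.77, Nkx6-1 had 0.98 and 0.88, and Atf4 had -1.69 and -1.44. The cause of this difference from the study was not tested. By the rule of 0.5 in both libraries no member counted as changed in β cells, where 32.7% of 7631 genes were below and 14.1% were above it. In CPM of all UMIs, Myt1 (0.80 and 0.88) and Myt1l (1.11 and 0.80) passed this rule, and 550 genes were below and 1990 above it.

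Genes of the family's wider setting were described from lists. In non-endocrine against β cells 28.7% of all genes tested fell and 25.6% rose, which is the background for these counts. Of 16 other pan-endocrine and islet transcription factors, 13 were tested in non-endocrine against β cells, where 10 fell and 2 rose, with a median log2 fold of -2.22 against -0.11 for all genes. Pdx1, a regulator of the insulin gene, fell by 3.53, Neurod1, an endocrine differentiation factor, fell by 2.96 and Mafa, a β cell maturity factor, fell by 2.89. The SIN3-HDAC and LSD1-CoREST corepressors, complexes of the kind with which Myt factors act, were flatter. Of 13 tested, 3 fell and 1 rose, no larger a share than among all genes, and the median was -0.20. Of 23 Notch pathway genes listed, 7 were tested, of which 6 rose and none fell. Among those 6 were the endothelial receptor Notch4 (log2 fold 5.79) and the ligand Dll4 (log2 fold 4.61). The class was chosen by endothelial, mesenchymal or leukocyte markers, so rises of endothelial genes there cannot be told apart from that choice. Of 15 stress genes tested, 2 rose and 6 fell, with Hspb1, a small heat shock protein, up by 3.63 and the chaperone Hspa5 down (log2 fold -1.37). The 16 stress genes were listed after the study's mention of Atf4 and heat shock proteins, which it credits to earlier work. The study also reported Atf4 from these samples, so the list is not fully independent of them.

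In α against β cells, where 26.9% of all genes passed in either direction, 5 of 19 corepressor genes rose and 1 fell, with Phf21a, a component of the LSD1 complex, at a log2 fold of 0.99 and Suds3, a component of the SIN3 complex, at -0.71. Of the 10 Notch genes tested 3 rose, led by the coactivator Maml2 (log2 fold 2.45). Of the 14 transcription factors tested 3 rose and 6 fell, with Mafa at a log2 fold of -3.40, and of the 16 stress genes none rose and 3 fell. In δ against β cells Hhex, the δ cell factor, stood at 5.23.

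The genes whose levels ran most like each member's were taken over the 15 class and library sums, each centred on its library mean, among 8026 genes. For St18 they were Prmt9 (Pearson's r = 0.93), Fam110b, Puf60, Kdm1a (r = 0.90) and Ccdc82. For Myt1 they were Zfp523 (r = 0.91), Kpna1, Sdhaf1, Imp3 and Rfc1, and for Myt1l they were Pde3b (r = 0.85), Fos, Pigu, Ptprn2 and Gnao1. The members themselves were less alike, at r = 0.49 for St18 and Myt1, 0.29 for Myt1 and Myt1l and -0.18 for St18 and Myt1l. These sums share libraries and depth, and the values are descriptions. Each sum had equal weight, also the small sums of δ and PP cells. Several of the named genes were low, such as Prmt9 at a mean of 22.1 CPM and Sdhaf1 at 23.6. The part of counting error in these correlations was not tested.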

How the data were processed

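RNA of single islet cells was measured. The deposited files hold raw UMI counts as whole numbers, which the authors made with DropEst according to the methods. The submitters' processing notes also name Seurat and GRCm39, and the aligner and annotation are not given in the sources used here. Barcodes outside the stated cell filters were present in the deposited files and were removed. Expression in control 1 was not analysed here. Doublets were not called, and cells passing for several hormones (19, 8 and 15) were left out, except that cells passing for Gcg and Ppy went to the larger.

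Counts were summed per class (at least 10 cells) and library and fitted with edgeR 4.0.16 in R 4.3.3 after TMM scaling and filterByExpr, without hormone and mitochondrial genes. The threshold was an adjusted p of 0.05. Replicates are libraries, each a pool of mice. With library as a term, p-values rest on how far class differences vary between libraries, with the spread pooled over classes and moderated across genes. This spread also holds any class difference between the genotypes. DESeq2 1.42.0 was an alternative. On simulated α against β counts of 8153 genes, the fit called 56 of 56 genes raised by 2 on the log2 scale, 45 of 54 lowered by 2, 31 of 42 raised by 1 and 16 of 48 lowered by 1, and 8 of 7953 unchanged genes. These counts were drawn with the dispersion of the fit itself and 1 profile for all classes and libraries. Changes were set only in genes with a mean above 20 counts per sum. The simulation thus cannot show how the fit does with other noise or with fewer counts. For genotype ratios the prior count was 1, and genes reaching a mean of 20 CPM were counted. Where gene IDs shared a symbol, the ID with most UMIs was used. From each gene list up to 4 genes with the largest change past the test were named, and some genes are not reported here. The members, lists and tests were chosen with earlier results of these data known, and the division of β cells by insulin share and Malat1 and the Sst share of 1% were chosen after the values were seen.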

Additional observations from a re-analysis of the deposited data

Results flagged for a closer look

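In 4 comparisons of a class with β cells, both mutant libraries moved one way and control 2 the other, which was not tested, since control is a single library. St18 in α over β cells had log2 ratios of -0.21 and -0.46 in the mutants and 0.11 in control 2. In cells of 3000 to 6000 UMIs α cells of control 2 stood below β cells too, at 28.5 against 217 CPM, from 1 UMI in 12 cells. St18 in hormone-low over β cells had -0.88 and -0.78 against 0.035, and Myt1 there had -0.75 and -0.70 against 0.020. Myt1 in PP over β cells had -2.09 and -0.96 against 0.51, from 2, 4 and 7 UMIs. The hormone-low cells of control 2 without endothelial, mesenchymal or leukocyte marker support also had a median mitochondrial share of 5.4% and 10440 CPM of Malat1. Their median insulin share was 17.0%, against 7.4% and 9.1% in mutants 1 and 2.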

How the results depend on the processing

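No paired analysis was possible because the mutant and control libraries with expression share only replicate number 2. The lower level in non-endocrine than in β cells kept its direction and its side of the threshold for all 3 members under every alternative run for it. When a library was left out, log2 folds were -2.33 to -1.57 for St18, -2.51 to -1.68 for Myt1 and -2.67 to -2.10 for Myt1l, with adjusted p up to 0.00047, 0.0075 and 5.1e-05. These alternatives did not include thinned sums or other cuts for insulin and for the minor hormones together, which turned members in hormone-low cells (below). Co-detection ratios stayed within their counting intervals, which are wide for such counts, in all 36 alternatives. The cause was not tested for the changes below.

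For Myt1l in α over β cells the difference passed at 0.47 by DESeq2, 0.50 with insulin at 75% of the median, 0.47 with minor hormones at 2% and, chosen after seeing the data, 0.47 with Sst at 1% and 0.48 with marker support as well, and it ranged from 0.39 to 0.58 when a library was left out. St18 in hormone-low over β cells passed at -0.60 without a filter, -0.86 with insulin at 25%, -0.54 with minor hormones at 2%, -0.63 with Sst at 1%, -1.87 with marker support and -1.97 with both. Myt1 there passed at -0.91 with insulin at 25%, -2.06 with marker support and -1.92 with both, and turned to 0.12 with insulin at 75%. Myt1l there passed at -2.35 with marker support and -2.49 with both, and turned to 0.37 in thinned sums and 0.26 with insulin at 75%. In δ over β cells, Myt1 turned to -0.046 with minor hormones at 2% and Myt1l to -0.48 in thinned sums. In PP over β cells Myt1l turned to -0.072 in thinned sums. St18 in δ over β cells stood at -0.13 with minor hormones at 10%, where only control 2 had enough δ cells for a sum. Myt1l in hormone-low over α cells no longer passed at -0.013 in thinned sums, -0.24 with insulin at 75% and -0.47 with minor hormones at 10%. St18 in hormone-low over δ cells no longer passed at -0.72 in thinned sums. With minor hormones at 10% it stood at -0.20, with δ cells of control 2 alone.

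Leaving out a library gave St18 -0.26 to 0.023 in α, 0.50 to 0.79 in δ and -0.79 to -0.30 in hormone-low over β cells, turning to 0.023 without mutant 2 and passing at 0.79 and -0.79 without control 2. It gave Myt1 -0.091 to 0.43 in δ and -1.41 to -0.16 in PP cells, turning to -0.091 and passing at -1.41 without control 2, and Myt1l -0.40 to 0.44 in δ and -0.091 to 0.26 in PP cells, turning to -0.40 and -0.091 without control 2. Myt1l in hormone-low over α cells ranged from -0.67 to -0.56 and St18 in hormone-low over δ cells from -1.58 to -0.82. Genes called ranged from 921 to 3106 in α, 499 to 906 in δ, 502 to 1459 in PP and 1337 to 2725 in hormone-low over β cells. Thinned sums called 885, 367, 371 and 833 genes in these, δ cells with minor hormones at 10% called 415, and dropping the filter called 4122 in hormone-low and 5070 in non-endocrine cells.

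The mean log2 ratio of the mutant libraries to control 2 in β cells was -0.42 for St18, 0.26 for Myt1 and 0.37 for Myt1l. In CPM of all UMIs it was 0.17, 0.84 and 0.96, without TMM it was -0.20 for St18 and 0.47 for Myt1, and in cells of 3000 to 6000 UMIs it was -0.058 and 0.44. Genes lower and higher in both mutant libraries numbered 2493 and 1078, against 550 and 1990 in CPM of all UMIs, 1373 and 678 at 50 CPM, 1357 and 1872 in cells of 3000 to 6000 UMIs, and 1638 higher without TMM. At 3 to 38 UMIs per δ sum and 2 to 25 per PP sum, depth limits what these classes can show.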
